A study of Daphnia magna with 20 samples.

Results

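Adult males of the water flea *Daphnia magna* were compared with adult females on 11 of the 20 arrays of a life cycle study. All animals came from 1 clone (Clone F), so that the sexes share a genotype, and RNA was taken from whole bodies. The 2 male arrays (M) came from reproductively active males that are 16 days old in the sample labels, while the methods give a younger age. The 9 female arrays came from reproductive females of the third clutch at the beginning (F1, 15 days), in the middle (F2, 16 days) and at the end (F3, 18 days) of the intermoult cycle, with 3 arrays each. Embryos were flushed from the brood pouch of the females before collection. Males were obtained by exposing their mothers to methyl farnesoate, while the labels state that no treatment was performed, so sex and the hormone exposure of the mothers cannot be told apart. The other 9 arrays held early embryos (E1, under 12 h), late embryos (E3, 60 h) and juveniles of 4 days (J), all labelled female, and serve here only to place the sex-biased transcripts in the life cycle. Juveniles of this age have no visible ovary, according to the methods. The labels do not say that the arrays of a stage came from separate cultures, so p-values measure the spread between these samples, which may be technical. This spread was estimated for each probe over all 7 stages together, so it rests mostly on stages other than males.

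*D. magna* has no sex chromosomes. Mothers produce genetically identical daughters by parthenogenesis, and sons when the environment changes, through the crustacean juvenile hormone methyl farnesoate and the male expression of a doublesex gene. Adult females alternate moulting with the filling of yolk into a new clutch of eggs in the ovary, whereas males carry testes and enlarged first antennae. In whole bodies a difference between the sexes can reflect more cells of a type or more RNA per cell, and these cannot be told apart. No table used here names the gene models of this array, so markers of ovary, yolk or testis could not be looked up, and the sex on the labels was not checked against them.

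Each gene model was represented by up to 4 printed probes, and the array carried 162718 probes for 41316 gene models. The background of an array was the percentile 95 of its random-sequence probes. The 76182 probes (28448 gene models) that exceeded it on all arrays of any stage were tested. Values are normalized log2 signals, on which a difference of 1 is a 2-fold change. The arrays lay on 5 slides. Of the adults, the first slide held M replicate 1 and F1 replicate 3, the only male and female arrays that share a slide. M replicate 2 shared neither slide nor scan date with an adult female array. All adult female arrays but F1 replicate 3 were scanned on another date than both male arrays. Outside the first slide, sex and scan date of the adults therefore cannot be told apart. The share of probes above background was 27.5% for M replicate 1 and 46.9% for M replicate 2, against 30.0 to 42.0% for the 9 female arrays. By the scanner software's own mark, 17.3% and 53.0% of the probes were well above background on the 2 male arrays, against 25.3 to 80.7% on the female arrays, with the lowest female value on F1 replicate 3.

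At an adjusted p under 0.05 and a change of at least 1.5-fold, 28231 of 76182 probes differed between males and the mean of the 3 female stages (37.1%; limma, Benjamini-Hochberg adjustment). Of these, 10631 were higher in males (14% of the tested probes) and 17600 were lower (23.1%). They belonged to 14489 of 28448 gene models (50.9%), of which 5911 had a probe that was higher in males (20.8%) and 8868 a probe that was lower (31.2%). The share of calls in each direction depended on how signals under the detection floor were treated. This floor, the lowest signal marked well above background on an array, was 8.10 on M replicate 1 and 4.51 on M replicate 2. On the female arrays it was 2.84 to 6.46. Since the floor of M replicate 1 was above that of every female array, raising signals to it cuts differences lower in males more, by construction. With signals of the lower sex raised to this floor, 21576 of the called probes were still at least 1.5-fold apart, 10605 higher in males and 10971 lower. By the fitted differences 3547 probes were at least 4-fold higher in males and 7417 lower, and with the floor 3174 and 2158. At 16-fold the fitted counts were 757 and 1143 and the counts with the floor 653 and 510, and at 64-fold 191 and 112 against 164 and 9. The median difference was 1.55 among the higher probes and −1.80 among the lower ones. Over all tested probes it was −0.25, or 0.025 when the arrays were scaled by their 75th percentile instead of their quantiles. With limma array weights, which gave both male arrays low weight, the counts were 10125 probes and 5603 gene models. Fewer probes were called without M replicate 1, but not without all arrays of the first slide, which leaves the same male array. The median over all tested probes was then 0.050 and 0.0086.

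Random-sequence probes, added to the array as negative controls, were set against these counts. Whether any of them matches a transcript could not be checked. Of 2532 on the array, 137 passed the same filter, and 45 of the 137 met the same limits (32.8%), 12 higher in males and 33 lower. A change of at least 4-fold was met by 21.2% of the random probes and 14.4% of the gene-model probes, and a change of at least 16-fold by 2.92% and 2.49%. The random probes that passed were dimmer, with a median level of 6.22 against 7.58 for gene-model probes. The count of probes called is therefore no count of transcripts that differ, and the part of unspecific signal in it was not tested. Probes of 1 gene model that move together and differences on both male arrays are given below for this reason.

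**Figure D1:**
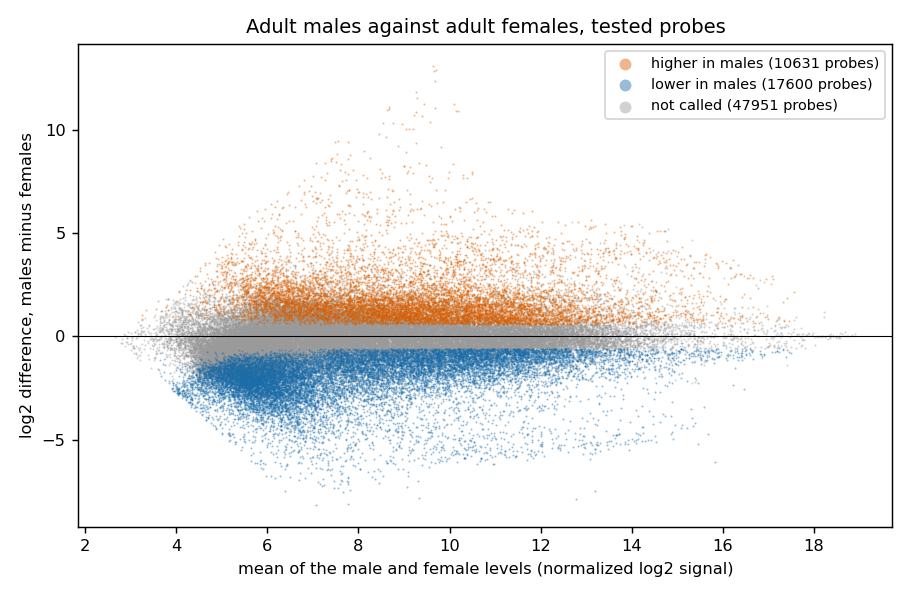
Log2 difference of males minus the mean of the 3 female stages against the mean of the male and female levels, for 76182 tested probes. The 10631 probes higher in males are orange, the 17600 probes lower in males are blue and probes that were not called are grey; the probes lower in males form a dense group at low levels, while the probes higher in males reach further from 0.

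By the fitted differences more probes were lower than higher in males at every signal level, most of all at levels of 6 to 8. Among 24446 probes with a mean level of 6 to 8 over all 20 arrays, 11.1% were higher in males and 25.2% lower. Under 6 the shares were 9.26% and 14.3% of 17698 probes, between 8 and 10 they were 19.7% and 26.2% of 16033, and above 10 they were 17.3% and 26.1% of 18005. The 25439 probes well above background on all 11 adult arrays had 21.6% higher and 20.3% lower in males, and with only such probes in the fit 52.7% of the calls were higher in males, against 37.7% over all tested probes. This selection drops by construction any probe whose male signal was too dim to be marked.

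The 2 male arrays lay further apart than any pair of female arrays of a stage. Their median absolute difference was 0.74, against 0.18 to 0.47 over the 9 female pairs, and 57.5% of the tested probes differed by at least 1.5-fold between them, against 9.48 to 43.2% in the female pairs. The female pairs that held F1 replicate 3, from the slide of M replicate 1, had values of 43.2% and 37.3%. The fit used 1 spread per probe for all stages, so its p-values reflect the wider gap of the 2 male arrays only in part. The called probes were chosen by the mean of these 2 arrays, so their values on each are a description. Among the probes higher in males, M replicate 1 lay a median of 1.57 above the female mean and M replicate 2 a median of 1.45, and 80.9% and 75.2% of the probes were above all 9 female arrays on them. Among the probes lower in males, the medians were −2.04 and −1.40, and 92.7% and 82.2% were below all 9 female arrays. Both male arrays lay beyond all 9 female arrays for 7067 of the probes called higher (66.5%) and 13724 of those called lower (78%). Over all tested probes 34.5% separated the sexes in this way, 13.2% with males above and 21.3% with males below.

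**Figure D2:**
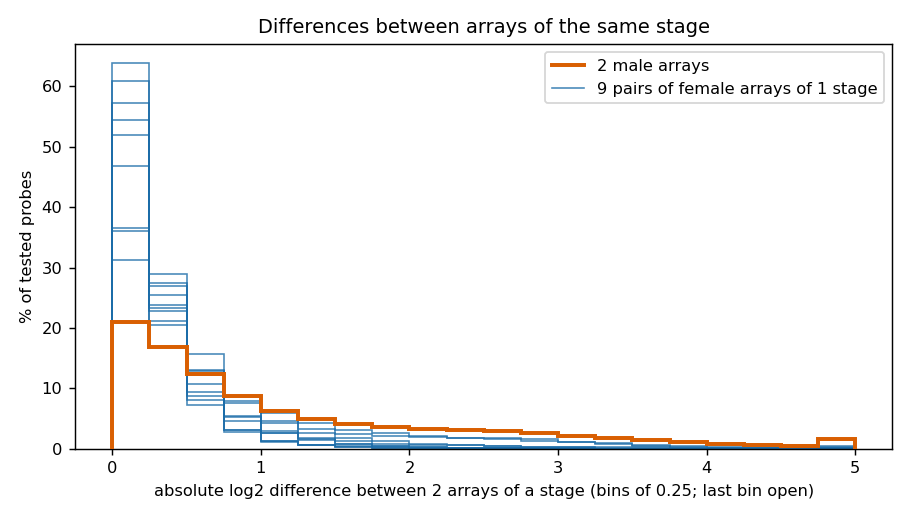
Absolute log2 difference between 2 arrays of the same stage, in bins of 0.25 with an open last bin, as the percent of the tested probes. The 2 male arrays (orange) had a median of 0.74 and the 9 pairs of female arrays (blue) had medians of 0.18 to 0.47.

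The male arrays stood furthest apart from each other in their median where the signal was low, and levels under 8 lie below the floor of M replicate 1. Over all tested probes with a level under 6, M replicate 1 had a median difference of −1.19 from the female mean and M replicate 2 one of 0.23. Between levels 6 and 8 these medians were −0.63 and 0.080, and above a level of 10 they were −0.081 and −0.13. Against F1 replicate 3 of the same slide, M replicate 1 had a median difference of −0.0076 for the probes under 6, −0.35 for those at 6 to 8, −0.15 for those at 8 to 10 and −0.13 for those above 10. The probes called lower in males had medians of −2.65 on M replicate 1 and −1.61 on M replicate 2 under 6, −3.21 and −1.28 at 6 to 8, −1.57 and −1.54 at 8 to 10, and −1.05 and −1.35 above 10. At 8 to 10 the probes higher in males had medians of 1.42 and 1.44.

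Within the first slide, M replicate 1 was above F1 replicate 3 for 92.4% of the probes called higher, with a median of 1.47, and below it for 96.6% of the probes called lower, with a median of −1.77. Over all tested probes 44.7% were above and 55.3% below. Both arrays are part of the contrast that chose the called probes, so these shares are a description and no separate check. With a single male array in the fit, whose spread was then taken to be that of the other stages, 28077 probes were called for M replicate 1 and 17891 for M replicate 2. Of the 10631 probes higher in males, 6799 were called with M replicate 1 alone, 5154 with M replicate 2 alone and 3547 with each of them alone (33.4%). Of the 17600 lower probes these counts were 13925, 10327 and 7917 (45%). The fits share all female arrays, and 395 tested probes were called in opposite directions by the 2 male arrays.

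Against the 3 points of the intermoult cycle, males differed in similar numbers of probes. Against F1, 9181 probes were higher in males and 15548 lower (32.5% of the tested probes). Against F2 the counts were 8873 and 15602 (32.1%), and against F3 9138 and 17025 (34.3%). These comparisons share the male arrays. In all 3 of them, 3305 probes of 2009 gene models were higher in males and 10194 probes of 5330 gene models were lower (17.7% together), which is 31.1% of the probes higher than the female mean and 57.9% of the lower ones. Female levels themselves moved more among the probes that were higher in males. Of these, 34.3% also differed among F1, F2 and F3 in a limma F test (adjusted p under 0.05), against 11.3% of the probes lower in males and 16.5% of all tested probes.

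A small group of probes changed sides during the cycle. Of the 76182 tested probes, 747 were higher in males than 1 female stage and lower than another. Of these, 514 were above F3 and below F1 and 403 above F3 and below F2, while 28 were above F1 and below F3 and 3 above F2 and below F3.

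**Figure D3:**
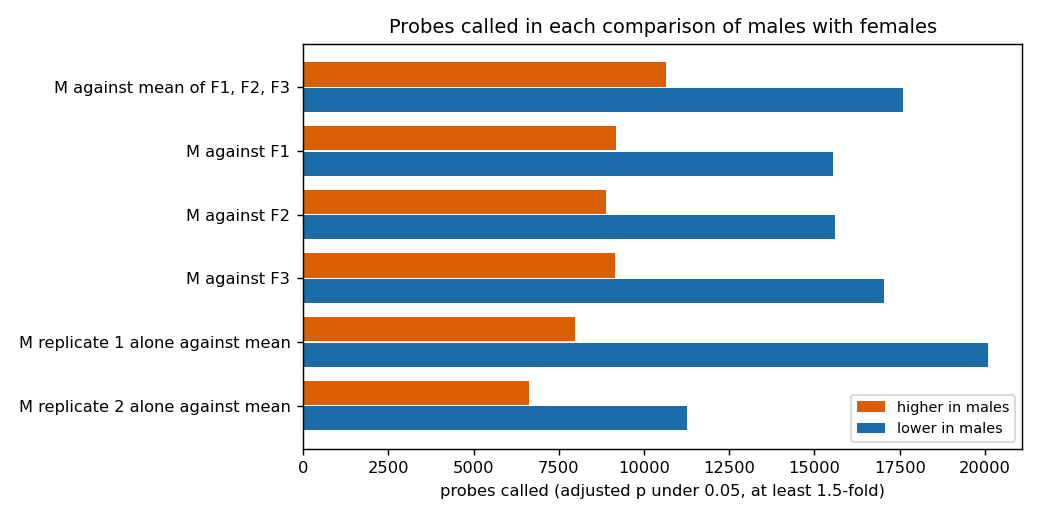
Probes called higher (orange) and lower (blue) in males against the mean of the 3 female stages, against each stage, and with a single male array. In all 6 comparisons more probes were lower in males, with 6625 higher and 11266 lower for M replicate 2 alone and 7982 and 20095 for M replicate 1 alone.

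Different probes of a gene model mostly pointed the same way. Of 21340 gene models with at least 2 tested probes, 7428 had at least 2 called, and in 2575 of these all called probes were higher in males, in 4563 all were lower and in 290 (3.9%) the directions were mixed. Every tested probe was called higher in 1215 gene models (5.69% of the 21340) and lower in 2427 (11.4%). The log2 differences of the probes of a gene model had a median SD of 0.51, where the SD over all probes of these gene models was 1.56. Only 5 gene models had at least 2 probes called in each direction. Identifiers that share the part before the last number, which may be transcripts of 1 locus, were less uniform: of 524 such groups with at least 2 called gene models, 163 were all higher in males, 245 all lower and 116 mixed (22.1%).

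Gene models were then ranked by the smallest difference among their probes, among those in which every tested probe was called in the same direction and both male arrays lay beyond all 9 female arrays. This held for 696 gene models higher in males (3.26%) and 1828 lower (8.57%). The first 2 of each direction are described by the identifiers of the array, with probes numbered in the order of the array design. These values chose the gene models and are given as a description.

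Gene model velh8ptr216k23Loc205t1 was bright on both male arrays and not well above background on any female array. Its probe 1 had 16.26 and 16.02 on the male arrays, against a lowest value of 2.66, a median of 2.89 and a highest value of 4.89 on the 9 female arrays. Probe 2 had 16.08 and 15.64 in males, against 2.72, 3.60 and 4.38 in females, and probe 3 had 16.41 and 15.96 in males, against 2.61, 2.99 and 3.79 in females. The male arrays were close to each other on all 3 probes and the sexes were far apart. No female value of these probes was marked well above background, so the folds are bounds by the detection floor: at least 4313-fold, 3454-fold and 4453-fold higher in males. For them the male mean was set against the lowest level counted as well above background on each female array, or against the probe itself where that was higher. The lowest marked signal is a lenient floor. A stricter floor would give smaller folds, here and for the bounds below. The fitted differences were 12.90 ± 0.59, 12.36 ± 0.54 and 13.08 ± 0.45 (SE; adjusted p of at most 1.6e-09, limma). Probe 4 was above background on no array of either sex, with 4.90 and 3.13 in males and a median of 2.93 in females, and it was not tested. The gene model was also low in E1, E3 and J, where the means of probes 1 to 3 lay between 2.93 and 3.93.

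Gene model dmag2vel4f4xincok49Loc4658t3 showed the same pattern on 4 probes. Probe 1 had 15.66 and 15.56 in males, against a lowest value of 3.95, a median of 4.79 and a highest value of 5.12 in females. For probe 2 the male arrays had 15.72 and 15.58, against 3.32, 4.70 and 5.73 in females. The male arrays were close to each other and no female array came near them. Probes 3 and 4 averaged 14.74 ± 0.275 and 14.57 ± 0.261 in males (SD, n = 2), and 4.39 ± 0.476 and 3.88 ± 0.595 in females (SD, n = 9). The differences ranged from 10.35 ± 0.38 to 10.92 ± 0.55 (SE), with adjusted p of at most 2.2e-08 (limma). Only 2 to 6 of the 9 female arrays were well above background for a probe. With the other female signals raised to the floor of their array, the differences were at least 10.00 to 10.73, or 1022-fold to 1694-fold. Means in E1, E3 and J were at most 6.03.

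Gene model veln4ptr023k33Loc39t2 was at the bottom of the male range and well above background on all 9 female arrays with 2 of its probes. Probe 3 had 2.76 and 2.71 in males, against a lowest value of 8.26, a median of 9.71 and a highest value of 10.61 in females. Probe 4 had 3.01 and 4.44 in males, against 10.43, 11.94 and 12.73 in females. The sexes did not overlap. The fitted differences were −6.85 ± 0.53 and −8.09 ± 0.86 (SE; adjusted p 2.4e-07 and 5.1e-06, limma), and the bounds were at least 9.71-fold and 45.9-fold lower in males. The floor of 8.10 on M replicate 1 limits these bounds. Probes 1 and 2 were above background in neither sex. In J the means of both probes, 10.10 and 12.47, were within the range of the female arrays, whereas they were low in E1 (3.94 and 5.19) and E3 (3.40 and 4.87).

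For gene model velh8ptf110k23Loc1t613 the 2 male arrays were far apart. Its probes 3 and 4, with female medians of 16.98 and 16.85, were at 13.25 and 12.74 on M replicate 1 and at 5.70 and 4.96 on M replicate 2. Probes 1 and 2 were at 7.83 and 7.98 on M replicate 1 and at 3.59 and 2.86 on M replicate 2, against female medians of 12.47 and 13.30. Every male value was below every female value of the same probe, but the size of the difference rested on the array. The fitted differences ran from −7.84 ± 1.34 to −6.77 ± 1.06 (SE; adjusted p of at most 0.00037, limma). Probe 3 was well above background on both male arrays and probe 4 on 1, while probes 1 and 2 were on neither and were at least 72.2-fold and 123.7-fold lower in males. The median over its probes was −4.3 without M replicate 2 and −10.81 without M replicate 1. In contrast to veln4ptr023k33Loc39t2, its means in J, 5.40 to 10.22 over the 4 probes, were below the female range of each probe. Probes 2 to 4 were still well above background on all 3 J arrays. In E1 the means ran from 4.31 to 10.68 and in E3 from 4.17 to 6.95.

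**Figure D4:**
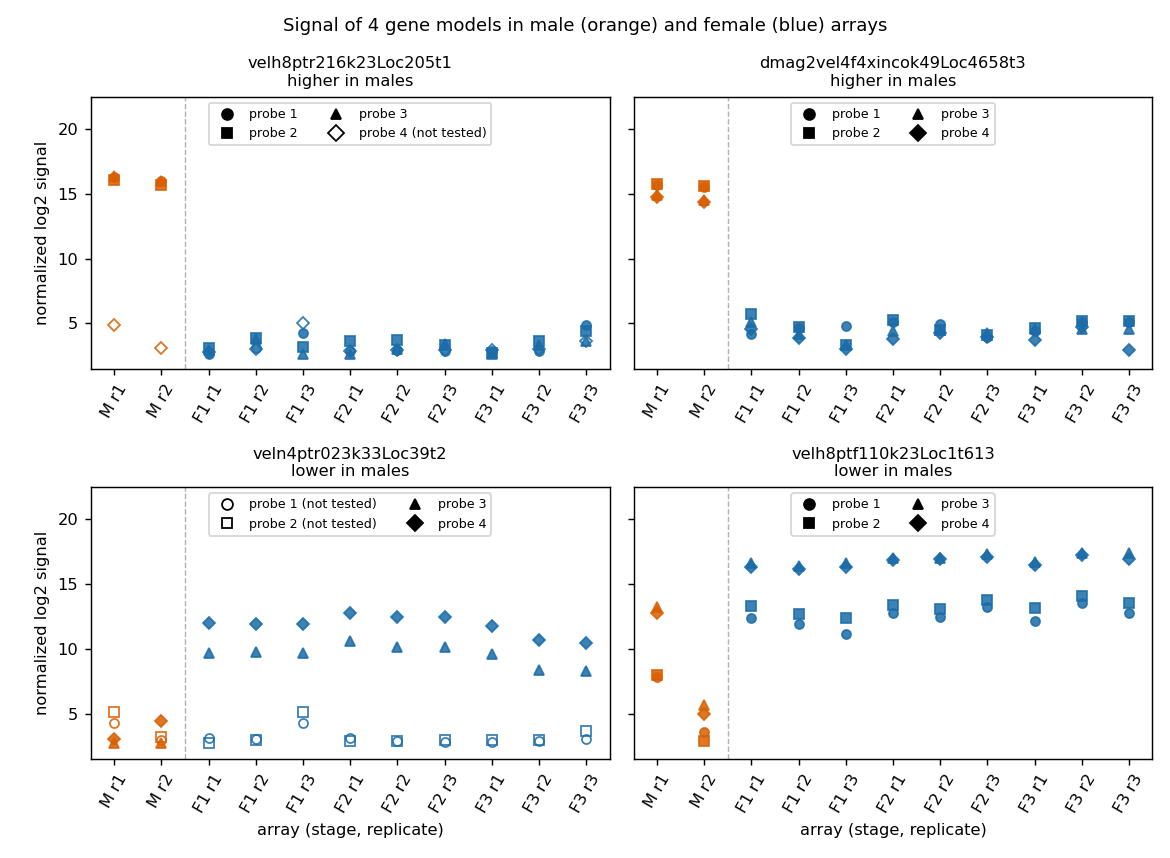
Normalized log2 signal of each probe of 4 gene models on the 2 male arrays (orange, left) and the 9 female arrays (blue, right); open symbols are probes that were not tested. Male signals lie at 14.4 to 16.4 for the tested probes of the upper gene models, and the male arrays of velh8ptf110k23Loc1t613 stand apart from each other at 13.25 and 5.70 for probe 3.

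A wider look at the strongest sex differences took the gene models of this ranking in which every tested probe had a fitted difference of at least 16-fold. With the signals of the lower sex raised to the floor of the array, 77 of the 90 higher in males and 69 of the 128 lower still reached 16-fold with every probe, and 90 and 109 reached 4-fold. The high floor of M replicate 1 bears only on the 128 lower in males. There were 90 such gene models higher in males, with 318 probes, and 128 lower, with 448 probes. The 90 had a median level of 11.84 on M replicate 1 and 11.14 on M replicate 2, against 5.01 in females, and their median difference was 6.07, with a range of 4.21 to 12.90. In females 67 of them had a mean level under 6, and in males 9 had a level of at least 14. M replicate 1 was above M replicate 2 in 78 of the 90. The male arrays agreed within 2-fold for 65 of the 90, and the largest gap between them was 1.96.

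The 128 gene models lower in males had a median level of 7.40 on M replicate 1 and 6.50 on M replicate 2, against 12.31 in females. Their median difference was −5.08, with a range of −7.64 to −4.21. Many were bright in females: 32 had a female mean of at least 14. In males 18 of them had no probe well above background on either array. The male arrays agreed within 2-fold for 61 of the 128 and were at least 4-fold apart for 16, of which 14 were higher on M replicate 1, up to a gap of 6.17. Within females the median level was 12.02 in F1, 12.26 in F2 and 12.51 in F3, and F3 was the highest of the 3 in 123 of the 128 gene models. Only 4 of the 128 had a probe that differed among the female stages in the F test, so for nearly all single gene models the order did not pass that test.

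These strong groups had different profiles in immature stages. Each gene model was placed by whether its level in a stage lay on the male or the female side of the midpoint between the adult sexes. Of the 90 higher in males, 10 were on the male side in E3, 12 in J and 2 in E1, and 74 were on the female side, that is low, in all 3. Of the 128 lower in males, all were on the male side, that is low, in E3, 103 were in E1 and 6 in J. The commonest profile, in 99 of the 128, was low in E1 and E3 and on the female side in J. Their median level was 7.66 in E1, 5.97 in E3 and 10.89 in J, against 6.97 in males and 12.51 in F3. In J, all probes of 125 of the 128 were well above background on all 3 arrays. Of all tested probes, counted singly and not by gene model, 92.6% were.

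Some probes were marked well above background in 1 sex alone. For 9 gene models at least 2 probes (20 in all) were marked on both male arrays and on none of the 9 female arrays, and for 67 gene models at least 2 probes (161 in all) were marked on all 9 female arrays and neither male array. These are counts of probes and not of silent genes, since another probe was marked on an array of the other sex for 8 of the 9 and for 37 of the 67, among them velh8ptf110k23Loc1t613. The levels of the male-only probes on the 2 male arrays ran from 9.04 and 7.70 for the dimmest gene model to 16.25 and 15.87 for the brightest, which was velh8ptr216k23Loc205t1, and the next had 14.57 and 13.76. The bounds were a median of at least 102-fold, with 10 of the 20 probes at 100-fold or more. For the female-only probes the median bound was at least 6.16-fold, with 1 of 161 at 100-fold or more. The high floor of M replicate 1 limits these bounds. The counts depended on single arrays. Without M replicate 1 there were 60 gene models in males only, and without F1 replicate 1 there were 17. Without M replicate 2 there were 3064 gene models in females only, and without F1 replicate 3 there were 1243. M replicate 1 had the fewest probes well above background of the adult arrays. With signals above the percentile 95 of the random probes in place of the scanner software's mark, the counts were 86 and 161.

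In immature stages, none of the 20 male-only probes was well above background on any of the 3 J arrays, where 2.5% of all tested probes were on none. Of the 20, 18 were on no E3 array, 15 on no E1 array and 13 on none of the 9 arrays. Of all tested probes, 6.56% were on no E3 array and 11.2% on no E1 array. Male-only probes were chosen as unmarked on all 9 female arrays, so the shares of all tested probes are no matched comparison for them. Female-only probes were present in juveniles as often as other probes, with 150 of 161 (93.2%) on all 3 J arrays, against 92.6% of all tested probes. In late embryos they were rarer. E1 and E3 each have 1 array on the first slide, with few probes above background, so the 2 others were counted: 25 of the 161 (15.5%) were well above background on both E3 arrays, against 89% of all tested probes, and 96 (59.6%) on both E1 arrays, against 79.1%. On no array of E3 were 115 (71.4%, against 6.56% of all tested probes) and on no array of E1 37 (23%, against 11.2%). Female-only probes were chosen as unmarked on both male arrays, so these contrasts with all tested probes are likewise a description.

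Over all probes called between the adult sexes, late embryos were nearest to males of the 3 immature stages. The 10631 probes higher in males had a median level of 10.11 in M and 8.16, 8.22 and 8.43 in F1, F2 and F3. In E1, E3 and J it was 7.24, 9.53 and 8.87. The 17600 probes lower in males had a median of 6.49 in M, against 8.65, 8.68 and 8.77 in the female stages, and 8.51, 7.32 and 8.08 in E1, E3 and J. In E3, 59.8% of the higher and 64.4% of the lower probes were on the male side of the midpoint. In J the shares were 41.9% and 27.1%, and in E1 29.5% and 36%. Over all tested probes the stage medians lay between 7.45 and 7.77. The order of E3 and males held on each array: the higher probes had medians of 9.40 to 9.61 on the 3 E3 arrays, against 8.17 to 8.58 on the 9 female arrays, and the lower probes 7.24 to 7.44, against 8.60 to 8.94. The strongest gene models were an exception among those higher in males, since 80 of the 90 were on the female side in E3.

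**Figure D5:**
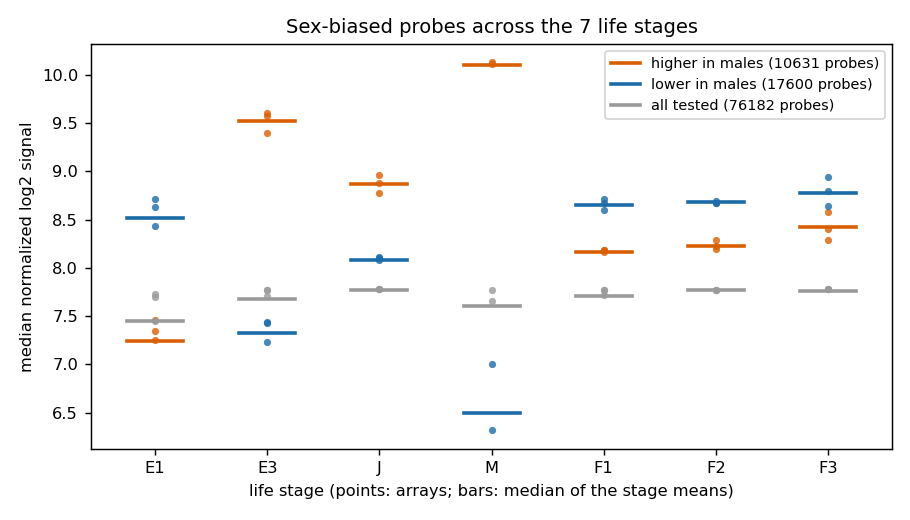
Median normalized log2 signal of the probes higher in males (orange), lower in males (blue) and all tested probes (grey) on each array (points), with the median of the stage means (bars), in early and late embryos (E1, E3), juveniles (J), males (M) and the 3 female stages. The higher probes reach 9.53 in E3 and 10.11 in M, against 8.16 to 8.43 in the female stages, and the lower probes are at 7.32 in E3 and 6.49 in M.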

How the data were processed

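Total RNA was hybridised to one-colour Agilent arrays. The deposited scanner files hold spot intensity, corrected by the authors for background with Agilent Feature Extraction (version 10.5 in the submitters' processing notes, 10.5.1.1 in the file headers). The authors' value table, deposited as log2 values quantile normalized and centred on the median of each probe, served as an alternative. No fold changes of the authors were used.

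Here spots marked as outliers were left out, the log2 processed signals of a probe's spots were averaged, followed by quantile normalization. A single limma 3.58.1 fit (R 4.3.3) held 20 arrays in 7 groups, with the contrast M minus the mean of F1, F2 and F3. Limma replaced the t-test of the methods because males have 2 arrays, where the methods state 3 replicates for each stage. The number of arrays limits the precision. The test was checked on simulated data with independent arrays and the same spread of a probe in all stages. That simulation held no slide or array differences and no wider gap between male arrays, so it does not cover them. Figures used Python 3.11.15 and matplotlib 3.10.9. Random probes were called at the same p limit as gene-model probes.

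The comparison and its lists were chosen with earlier results of these data known. The table of gene names matched 0 of 41316 gene models, so the planned gene lists and markers could not be applied, only 2 higher and 2 lower gene models are named, and no genome positions or probe sequences are given. Named gene models had at least 2 tested probes, all called in the same direction, with both male arrays beyond all 9 female arrays, and were ranked by their smallest difference.

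Alternatives changed the background correction, scaling, dim-probe filter, outlier spots, slide, scan date and replicate number as blocks, array weights, grouping, test, fold limit and arrays.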

Additional observations from a re-analysis of the deposited data

Results flagged for a closer look

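Of the female arrays, F1 replicate 3 stood apart in the share of probes above background, at 30.0% against 37.3 to 42.0% for the other 8, with a gap of 0.608 of the whole range. The same array gave the lowest of the female values of probe 3 of dmag2vel4f4xincok49Loc4658t3, at 3.32 with a highest value of 5.11, and its gap to the next was 0.496 of the range. Such a gap arises by chance in about 1 of 20 groups.

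The 747 probes that were higher in males than 1 female stage and lower than another were each called in 2 separate contrasts. The difference between these contrasts was not tested.

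Random probes, which were in no comparison of transcripts, gave 45 calls between males and females among the 137 above background.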

How the results depend on the processing

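All 4 named gene models kept their direction and their call in the 22 alternatives run for them, with ranges of 9.80 to 13.52 for velh8ptr216k23Loc205t1, 8.50 to 11.0 for dmag2vel4f4xincok49Loc4658t3, −7.82 to −4.46 for veln4ptr023k33Loc39t2 and −10.84 to −4.3 for velh8ptf110k23Loc1t613. Leaving out each array in turn gave 17891 to 28636 called probes, 8990 to 16155 gene models, 9730 to 15354 probes called against all 3 female stages and a share higher in males of 28.4 to 38.4%. The fewest calls came without M replicate 1. Leaving out all arrays of the first slide, which also leaves M replicate 2 as the only male array, did not lower the calls. Gene models in males only ranged from 9 to 60 and in females only from 67 to 3064, or 86 and 161 with the percentile of the random probes.

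With limma array weights, where both male arrays had the low weight of 0.183, 10125 probes, 5603 gene models and 7121 probes against all 3 stages were called. The methods' t-test gave 11629, 6081 and 769 at their threshold, and 3795 probes against all 3 stages after Benjamini-Hochberg adjustment. Restricting the fit to probes well above background on all adult arrays, an alternative chosen after seeing the data, gave 11445, 5924 and 5890, and turned the share higher in males to 52.7%; it drops probes that were dim in 1 sex. Raising signals of the lower sex to the floor of the array, also chosen after seeing the data, left 21576 probes and 10854 gene models and a share higher in males of 49.2%. This step cuts differences lower in males more, since M replicate 1 had the highest floor of the adult arrays. At least 2 probes called in the same direction left 7233 gene models. The share higher in males was 35.5% with normexp, 43% with a 75th percentile shift, 40.9% with the adults normalized alone or fitted alone, 38.8% without the filter, 36.7% with the filter in adults, 39% with the filter in 1 array, 38.5% with scan date as a block, 16.9% with array weights, 31.3% with females as a single group, 24.9 and 31.5% with the t-test unadjusted and adjusted, 36.3% at 2-fold and 43.6% without slide 1.

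The replicate numbers are shared without a stated link. Deviations of same-numbered arrays had a mean correlation of −0.037, against 0.018 for other pairs. With each female array, both male arrays had correlations of nearly the same size and opposite sign. The mean for other pairs therefore follows from the mean for same-numbered pairs by construction. This contrast cannot show whether the replicate numbers link arrays, and no conclusion was drawn from it. With the replicate block 26066 probes, 13500 gene models and 12085 probes against all 3 stages were called, with 37.6% higher in males. With slide as a block 24073 probes were called. The cause of these shifts was not tested.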
